A study of Mus musculus with 6 samples.

Results

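In regenerating livers of Aqp5-/- and Aqp5+/+ mice, transcripts of all 10 genes chosen here for the urea cycle and for the entry of ammonia into it were abundant, and none of the 10 passed the test for a difference between the genotypes. The genes were taken by name: Nags, Cps1, Otc and Slc25a15 for the steps in the mitochondrion, Ass1, Asl, Arg1 and Slc25a13 for the steps that form arginine and urea in the cytosol, and Gls2 and Glud1 for the release of ammonia from glutamine and glutamate. All 10 were found among the 16858 genes of the count table and all 10 passed the filter on low counts. The fitted difference of each gene lay between -0.29 (Otc) and 0.37 (Asl) on the log2 scale. What varied most were single libraries: Aqp5+/+ replicate 3 was the highest Aqp5+/+ library for 10 of the 10 genes, and Otc in Aqp5-/- replicate 3 stood far below its level in the other 5 libraries.

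Liver RNA was sequenced at 72 h after 70% partial hepatectomy (PHx), the removal of the larger liver lobes after which the remnant regrows. Aqp5-/- mice, made with CRISPR/Cas9 on fertilized eggs, lack aquaporin 5, a channel for water and hydrogen peroxide, in every cell and were compared with age-matched Aqp5+/+ mice, with 3 libraries per genotype. The methods state 3-month-old male mice for PHx, and C57BL/6 mice are named beside the Aqp5-/- mice. Whether each library stands for a mouse of its own is not stated, and the p-values therefore rest on the spread between libraries, which may in part be technical.

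Ammonia released from amino acids is toxic, and the liver turns it into urea. In the mitochondrion of the hepatocyte, CPS1 joins ammonia and bicarbonate to carbamoyl phosphate, a reaction that needs the N-acetylglutamate made by NAGS, and OTC passes the carbamoyl group to ornithine to give citrulline. Citrulline leaves through the carrier SLC25A15, and in the cytosol ASS1 adds aspartate, supplied through the carrier SLC25A13, after which ASL splits off fumarate and ARG1 splits arginine into urea and ornithine. The cycle is known to run mainly in hepatocytes near the portal vein, while the last rows of hepatocytes around the central vein take up the remaining ammonia with glutamine synthetase, encoded by Glul.

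Library totals ranged from 7130831 to 15550006 counts, with the lowest in Aqp5+/+ replicate 2. All 14 hepatocyte markers were detected in every library, in keeping with liver tissue, and their summed level was 86731 CPM in Aqp5+/+ replicate 2 and 131990 to 156750 CPM in the other 5 libraries. CPM are counts scaled to a common library size with TMM, edgeR's correction for library composition. Aqp5-/- replicate 3 stood apart from the other libraries, with correlations of log2 CPM over genes of 0.826 to 0.914, and so did Aqp5+/+ replicate 2, with 0.826 to 0.929. The summed level of 4 Y-linked genes was 287 to 470 CPM in Aqp5+/+ and 0.868 to 1.19 CPM in Aqp5-/- libraries, which goes against the statement that only male mice were used. Genotype and Y-linked expression thus cannot be told apart in any comparison below, that of the X-linked gene Otc included.

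Levels of different genes were compared per exon length, as TPM, the share of a transcript in all transcripts after division by exon length. Cps1 was the most abundant of the 10 at 3713 ± 516 TPM (SD, n = 6 libraries), and Nags the least at 51.2 ± 13.9 TPM (SD, n = 6). CPS1 is known as a very abundant protein of liver mitochondria, whereas NAGS makes only its activator. Between them stood Ass1 at 2660 ± 624 TPM, Arg1 at 1505 ± 566 TPM, Glud1 at 779 ± 170 TPM and Otc at 316 ± 84.6 TPM (SD, n = 6 each). They were followed by Asl at 259 ± 61.2 TPM, Slc25a13 at 181 ± 22.4 TPM, Gls2 at 173 ± 36.3 TPM and Slc25a15 at 171 ± 61.1 TPM (SD, n = 6 each). The order from Cps1 through Ass1, Arg1 and Glud1 to Otc was the same in 6 of 6 libraries, and Nags was below Slc25a15 in 6 of 6. From Otc to Slc25a15 the neighbours were not separated in every library: Otc exceeded Asl in 5 of 6, Asl exceeded Slc25a13 in 5 of 6, Slc25a13 exceeded Gls2 in 3 of 6 and Gls2 exceeded Slc25a15 in 5 of 6.

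**Figure D1:**
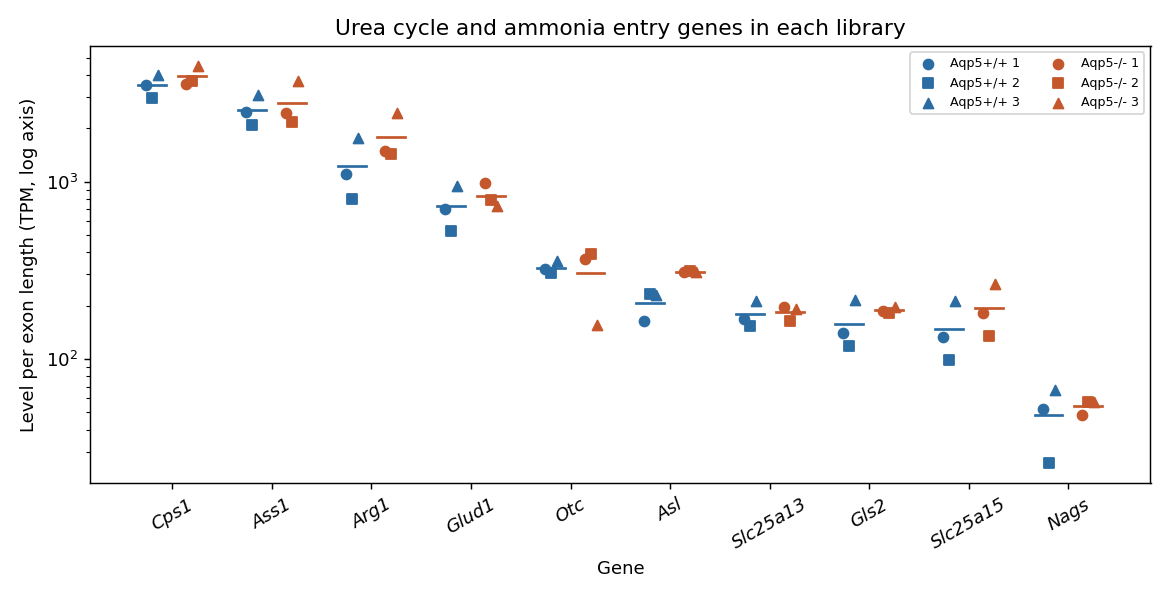
Level of each of the 10 genes in each library, as TPM per exon length on a log axis, with Aqp5+/+ in blue, Aqp5-/- in orange, a symbol for each replicate and a bar at the genotype mean. Cps1 and Nags stand at the ends with means of 3713 and 51.2 TPM over 6 libraries, and Otc in Aqp5-/- replicate 3 lies at 156 TPM, below the other libraries at 305 to 389 TPM.

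The sequences just upstream of the genes are shown for Otc, the gene that differed most between libraries of 1 genotype, and for Ass1, the most abundant member with an entry, both picked after the values were seen. They hold the 250 bases before the start site, 5′ to 3′ on the plus strand, from RefSeq on GRCm38.p6, at chrX:10252055-10252304 for Otc and chr2:31470020-31470269 for Ass1. RefSeq and GENCODE place the Ass1 start differently: the GENCODE gene begins at 31470207, so that the end of the Ass1 stretch lies inside that gene model. Capitals mark matches to TTNNGNAA on either strand, a loose form of the motif bound by C/EBP factors, which are known activators of urea cycle genes.
Otc: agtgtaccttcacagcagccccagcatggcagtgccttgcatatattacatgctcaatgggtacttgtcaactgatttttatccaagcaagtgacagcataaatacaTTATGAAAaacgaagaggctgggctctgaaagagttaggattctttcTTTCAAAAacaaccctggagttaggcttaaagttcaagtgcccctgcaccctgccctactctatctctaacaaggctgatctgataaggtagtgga
Ass1: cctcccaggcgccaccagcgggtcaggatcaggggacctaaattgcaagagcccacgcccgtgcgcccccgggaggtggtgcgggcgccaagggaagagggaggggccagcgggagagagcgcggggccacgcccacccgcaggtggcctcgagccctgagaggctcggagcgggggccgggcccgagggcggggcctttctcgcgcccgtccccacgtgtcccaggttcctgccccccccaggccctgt

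The Otc sequence held 2 matches, which began 143 and 96 bases before the start site, and no TATA box (letters TATAAA). Searched on both strands in the same way, it had no CAAT box (letters CCAAT), no core of the cAMP response element (letters TGACG) and no GC box (letters GGGCGG). The Ass1 sequence held no C/EBP match and 1 GC box, which began 63 bases before the RefSeq start, inside the GENCODE gene. Of the 6 genes with an entry, Nags also held 1 C/EBP match, and Slc25a13, Slc25a15 and Glud1 held none. Of all 32851 promoter entries of this length, 36.8% held the C/EBP letters, 12.4% the TATA box, 33.8% the CAAT box, 17.8% the cAMP response core and 32.7% the GC box, so that such matches are common. Cps1, Asl, Arg1 and Gls2 were not shown.

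Otc encodes ornithine transcarbamylase, lies on chromosome X from 10252305 to 10321024 (GRCm38, plus strand) and was the member with the most negative fitted difference. It was at 436, 429 and 529 CPM in Aqp5+/+ replicates 1 to 3 and at 448, 506 and 184 CPM in Aqp5-/- replicates 1 to 3. Aqp5-/- replicates 1 and 2 lay within the Aqp5+/+ range, and Aqp5-/- replicate 3 was below all other libraries, so the groups overlapped. The log2 fold change of Otc, Aqp5-/- against Aqp5+/+, was -0.29 (standard error 0.38, 95% interval -1.16 to 0.57, Benjamini-Hochberg adjusted p = 0.82 over all genes by the quasi-likelihood test of edgeR), and without Aqp5-/- replicate 3 it was 0.04.

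The low Otc of Aqp5-/- replicate 3 was not shared by its neighbours in the pathway. In that library Cps1 was at 29.0 times the level of Otc per exon length, against 9.56 to 11.2 times in the other 5 libraries. Arg1 was at 15.7 times the level of Otc there, against 2.62 to 4.89 times elsewhere. Slc25a15, whose product carries the citrulline that OTC makes, was at 1.70 times the level of Otc, against 0.323 to 0.592 times elsewhere. The same library had the lowest summed level of 14 pericentral hepatocyte markers, 3151 CPM against 7511 to 13910 CPM, and the highest of the stellate markers (3146 CPM against 602 to 846), the Kupffer cell and macrophage markers (1476 CPM against 282 to 756) and the cholangiocyte markers (464 CPM against 74.7 to 215). Their part in the Otc level was not tested. In bulk liver RNA, fewer cells of a type and less RNA per cell cannot be told apart.

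Cps1 encodes carbamoyl phosphate synthetase, the entry enzyme of the cycle, on chromosome 1 from 67123026 to 67231259 (plus strand). In replicate order, its level was 6226, 5497 and 7750 CPM in Aqp5+/+ and 5657, 6334 and 6999 CPM in Aqp5-/- libraries. All 3 Aqp5-/- values fell inside the Aqp5+/+ range. The log2 fold change was -0.04 (standard error 0.33, Benjamini-Hochberg adjusted p = 0.98 by the quasi-likelihood test of edgeR), and its 95% interval as a fold ran from 0.583 to 1.63.

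Nags, which makes the activator of CPS1, lies on chromosome 11 from 102145513 to 102149477 (plus strand) and shares bases with the predicted gene Gm11586, so that its reads may not all be its own. It was measured at 47.4, 24.5 and 66.0 CPM in Aqp5+/+ and at 39.2, 49.8 and 45.1 CPM in Aqp5-/- replicates 1 to 3. The Aqp5+/+ libraries spread on both sides of the Aqp5-/- libraries, which were close to each other. For Nags the log2 fold change was -0.04 (standard error 0.34, 95% interval -0.81 to 0.73, Benjamini-Hochberg adjusted p = 0.97 by the quasi-likelihood test of edgeR).

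Slc25a15 encodes the exchanger of ornithine and citrulline across the inner mitochondrial membrane and lies on chromosome 8 from 22375551 to 22398597 (minus strand). Aqp5+/+ replicates 1 to 3 were at 240, 184 and 415 CPM and Aqp5-/- replicates 1 to 3 at 293, 233 and 417 CPM. Replicate 3 was the highest library in both genotypes, and the groups overlapped over nearly their whole range. Its log2 fold change was 0.17 (standard error 0.37, 95% interval -0.67 to 1.00, Benjamini-Hochberg adjusted p = 0.89 by the quasi-likelihood test of edgeR).

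In the cytosol, Asl was the member with the most positive fitted difference and the only member whose groups did not overlap. It encodes argininosuccinate lyase on chromosome 5 from 130011258 to 130029247 (minus strand). Asl was at 253, 372 and 386 CPM in Aqp5+/+ and at 430, 462 and 417 CPM in Aqp5-/- replicates 1 to 3. The Aqp5-/- libraries lay close together above the Aqp5+/+ libraries, of which replicate 1 was the lowest. The mean was 337 ± 73.3 CPM over the Aqp5+/+ libraries and 436 ± 23.4 CPM over those of Aqp5-/- (SD, n = 3 each), a fitted fold of 1.30 with a 95% interval of 0.853 to 1.97. The log2 fold change of 0.37 (standard error 0.26) did not pass the quasi-likelihood test of edgeR, with a Benjamini-Hochberg adjusted p = 0.70. Among all 12353 genes tested, 14.7% had groups that did not overlap, so that 1 of 10 members is near the share of all genes.

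Ass1 encodes argininosuccinate synthase, which acts just before ASL, on chromosome 2 from 31470207 to 31520672 (plus strand). Its values were 1912, 1668 and 2581 CPM in Aqp5+/+ and 1697, 1600 and 2505 CPM in Aqp5-/- replicates 1 to 3. Replicate 3 was again the highest of each genotype, and Aqp5-/- replicate 2 was the lowest of all 6 libraries. The log2 fold change was -0.09 (standard error 0.33, 95% interval -0.85 to 0.68, Benjamini-Hochberg adjusted p = 0.95 by the quasi-likelihood test of edgeR). Per exon length, Ass1 stood at 12.5 ± 3.18 times the level of Asl in Aqp5+/+ and 8.95 ± 2.71 times in Aqp5-/- livers (SD, n = 3 each), ranges that overlapped.

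Arg1 encodes the liver arginase that releases urea, on chromosome 10 from 24915221 to 24927484 (minus strand). It was at 792, 591 and 1358 CPM in Aqp5+/+ replicates 1 to 3. In Aqp5-/- replicates 1 to 3 it was at 951, 981 and 1521 CPM. Aqp5-/- replicate 3 was the highest library and Aqp5+/+ replicate 2 the lowest, and Aqp5+/+ replicate 3 lay above the other 2 Aqp5-/- libraries. The fit put its log2 fold change at 0.33 (standard error 0.39, 95% interval -0.55 to 1.21, Benjamini-Hochberg adjusted p = 0.80 by the quasi-likelihood test of edgeR). With each library left out in turn the value for Arg1 ran from 0.08 without Aqp5-/- replicate 3 to 0.73 without Aqp5+/+ replicate 3. Arg2, the mitochondrial arginase found mainly outside the liver, was at 0 to 2.62 CPM.

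Slc25a13 encodes citrin, the liver carrier that brings aspartate out of the mitochondrion, on chromosome 6 from 6041218 to 6217173 (minus strand). It was at 205, 195 and 280 CPM in Aqp5+/+ and at 214, 191 and 204 CPM in Aqp5-/- replicates 1 to 3. Aqp5+/+ replicate 3 stood above the other 5 libraries, which lay close together. Its log2 fold change was -0.16 (standard error 0.24, 95% interval -0.70 to 0.39, Benjamini-Hochberg adjusted p = 0.84 by the quasi-likelihood test of edgeR). Slc25a13 was 10.7 to 24.0 times as abundant per exon length as Slc25a12, which encodes the aspartate carrier of muscle and brain.

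Gls2 encodes the liver glutaminase, which frees ammonia from glutamine in the mitochondria of periportal hepatocytes, and lies on chromosome 10 from 128194457 to 128210004 (plus strand), where it shares bases with the protein-coding gene Spryd4, so that the same doubt holds. Its Aqp5+/+ replicates were at 155, 138 and 260 CPM and its Aqp5-/- replicates at 185, 194 and 191 CPM. The Aqp5-/- libraries were nearly equal and lay inside the wide Aqp5+/+ range. For Gls2 the log2 fold change was 0.04 (standard error 0.28, 95% interval -0.60 to 0.69, Benjamini-Hochberg adjusted p = 0.97 by the quasi-likelihood test of edgeR).

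Glud1 encodes glutamate dehydrogenase, which releases ammonia from glutamate, on chromosome 14 from 34310727 to 34345265 (plus strand). It was at 946, 733 and 1391 CPM in Aqp5+/+ and at 1180, 1018 and 856 CPM in Aqp5-/- replicates 1 to 3. The Aqp5+/+ range again contained every Aqp5-/- library. The fitted log2 fold change of Glud1 was -0.01 (standard error 0.33, 95% interval -0.76 to 0.74, Benjamini-Hochberg adjusted p = 0.99 by the quasi-likelihood test of edgeR). In contrast to Otc and Arg1, the ratio of Glud1 to Gls2 per exon length varied little, from 3.70 in Aqp5-/- replicate 3 to 5.27 in Aqp5-/- replicate 1.

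**Figure D2:**
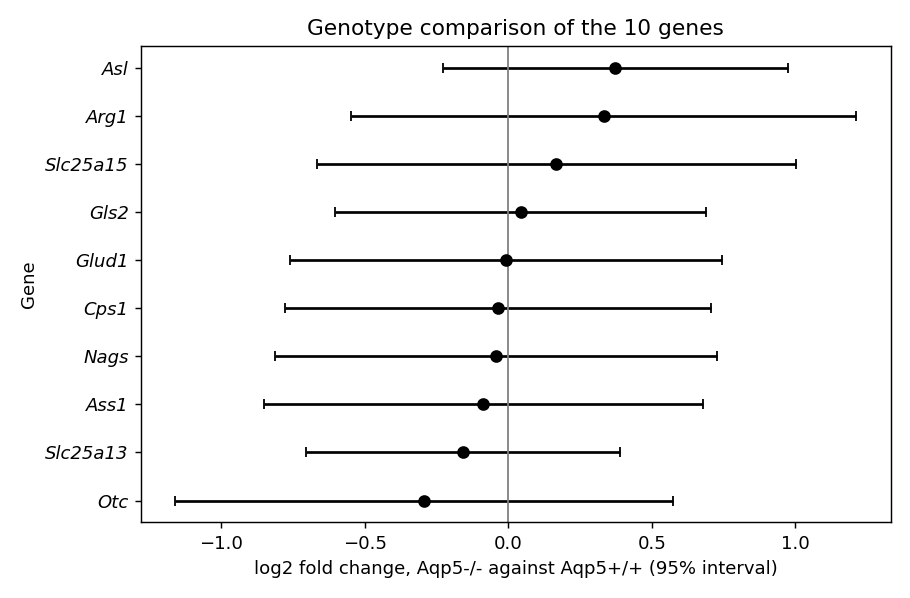
Fitted log2 fold change of each of the 10 genes, Aqp5-/- against Aqp5+/+ (points), with the 95% interval derived from edgeR's quasi-likelihood test (bars, n = 3 libraries per genotype). Values run from -0.29 for Otc to 0.37 for Asl, and each interval includes 0.

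Taken as a group, 0 of the 10 members had an adjusted p under 0.05 with edgeR, DESeq2 or limma. Of all 12353 genes, edgeR called 41 (0.332%), DESeq2 240 and limma 45. At an unadjusted p under 0.05 with edgeR the count was 0 of 10 members against 8.77% of all genes. With the fit 4 members were higher and 6 lower in Aqp5-/- livers, and their median log2 fold change was -0.02, beside 0.01 for all genes tested. With library totals in place of TMM both medians moved, to 0.14 for the members and 0.17 for all genes, and Cps1, Nags, Ass1, Slc25a13 and Glud1 turned positive, which left Otc as the only negative value. The upper ends of the 95% intervals ran from 0.39 to 1.21 and the lower ends from -1.16 to -0.23 on the log2 scale. The standard errors ran from 0.24 to 0.39.

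The spread itself was wider in Aqp5+/+ than in Aqp5-/- libraries for 8 of 10 members, the exceptions being Otc and Ass1. For Nags, Cps1, Gls2 and Glud1 the Aqp5+/+ range contained every Aqp5-/- library. Relative to each gene's Aqp5+/+ mean, the median of the 10 was -0.10, -0.32 and 0.42 on the log2 CPM scale in Aqp5+/+ replicates 1 to 3. For Aqp5-/- replicates 1 to 3 it was 0.01, 0.09 and 0.12. Aqp5+/+ replicate 2 was the lowest of its genotype for 9 of 10 genes, all but Asl, and it also had the lowest summed hepatocyte markers and depth. Aqp5+/+ replicate 3, the highest of its genotype for all 10, also had the highest summed hepatocyte markers (156750 CPM) and the lowest TMM factor (0.909). The shares of all genes with these patterns of spread, range and order were not computed, so the counts cannot be read as particular to the members. As a percentage of the summed hepatocyte markers, the 10 genes together came to 11.3% in Aqp5+/+ replicate 2 and to 8.29 to 9.83% in the other 5 libraries, with 9.58% in Aqp5+/+ replicate 3. Their share of all counts lay between 0.919% in Aqp5+/+ replicate 2 and 1.44% in Aqp5-/- replicate 3.

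**Figure D3:**
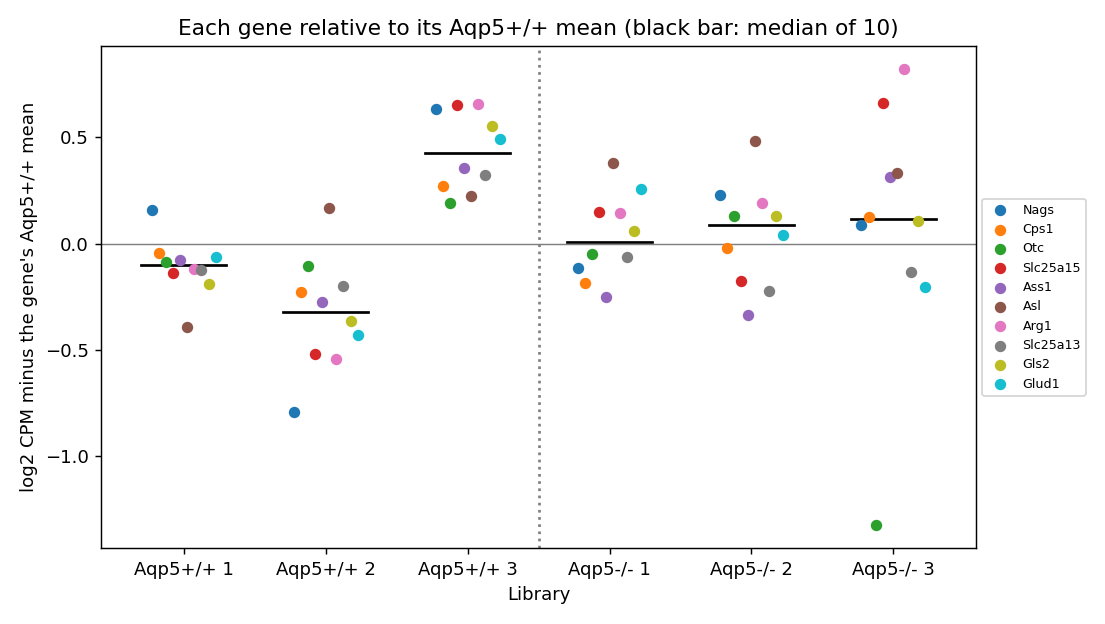
Log2 CPM of each member minus the mean of its log2 CPM over the Aqp5+/+ libraries, by library, with a black bar at the median of the 10 genes. The median is lowest in Aqp5+/+ replicate 2 (-0.32) and highest in Aqp5+/+ replicate 3 (0.42), and Otc in Aqp5-/- replicate 3 is the lowest point at -1.33.

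The members differed in how closely they followed that shared profile over the 6 libraries. Measured as the root mean square difference on the log2 scale, Gls2 (0.091), Cps1 (0.11) and Slc25a13 (0.12) lay nearest to the median profile of the members, and Asl (0.32) and Otc (0.55) farthest. Among other genes whose mean reached 10 CPM, the nearest 5 were Fam134c (0.049), Tmem135 (0.065), Glyctk (0.070), Dhrs1 (0.070) and Eprs (0.072). These distances describe 6 libraries that share their scaling, and carry no test.

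Around the cycle, 82 further genes of nitrogen handling were listed in 5 groups, of which 74 passed the filter. Of these, 0 passed the quasi-likelihood test of edgeR after Benjamini-Hochberg adjustment and 0 that of DESeq2, 5 had an unadjusted p under 0.05 and 8 had groups that did not overlap, and their median log2 fold change was -0.03. Those counts stand against 0.332% (edgeR), 8.77% and 14.7% of all genes for the 3 criteria, and DESeq2 called 240 of all 12353 genes.

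Glutamine synthesis and the transport of ammonia and glutamine formed the first group, with 0 of 13 tested genes called and a median log2 fold change of -0.25, which was 0.04 without Aqp5-/- replicate 1. Glul, the glutamine synthetase of pericentral hepatocytes, was at 1159, 1180 and 1082 CPM in Aqp5+/+ and at 807, 1278 and 377 CPM in Aqp5-/- replicates 1 to 3. As for Otc, Aqp5-/- replicate 3 was the lowest library, while Aqp5-/- replicate 2 was the highest. For Glul the log2 fold change was -0.47 (standard error 0.43, Benjamini-Hochberg adjusted p = 0.75 by the quasi-likelihood test of edgeR). Per exon length Glul stood at 2.07 times the level of Gls2 in Aqp5-/- replicate 3 and at 4.36 to 8.96 times in the other libraries. The ammonia channel gene Rhbg was at 5.55 to 13.2 CPM in Aqp5+/+ and 1.96 to 6.48 CPM in Aqp5-/- livers, and the glutamine transporter gene Slc38a3 at 1217 to 1877 CPM and 625 to 1569 CPM. The groups overlapped for both, and Aqp5-/- replicate 3 was the lowest library for each. Slc38a4, a transporter gene for neutral amino acids, was at 1308, 1305 and 1833 CPM in Aqp5+/+ and at 1012, 1175 and 968 CPM in Aqp5-/- replicates 1 to 3, without overlap, and its log2 value of -0.50 (standard error 0.29) did not pass the test. The mitochondrial glutamate carrier gene Slc25a22 had a log2 fold change of -0.38, with overlapping groups.

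Glul and Rhbg are also among the 14 pericentral markers listed. All 14 had a negative log2 fold change with TMM (median -0.67) and 13 with library totals (median -0.53), and 0 were called. Without Aqp5-/- replicate 3, 12 were negative (median -0.45). Of 13 periportal markers 0 were called, and their median was 0.09. The summed pericentral level was 12730 to 13910 CPM in Aqp5+/+ and 3151 to 11720 CPM in Aqp5-/- libraries, and the periportal sum was 4344 to 10520 CPM and 7968 to 8684 CPM. The part of the pericentral level in the values of Glul, Rhbg and Slc38a3 was not tested.

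**Figure D4:**
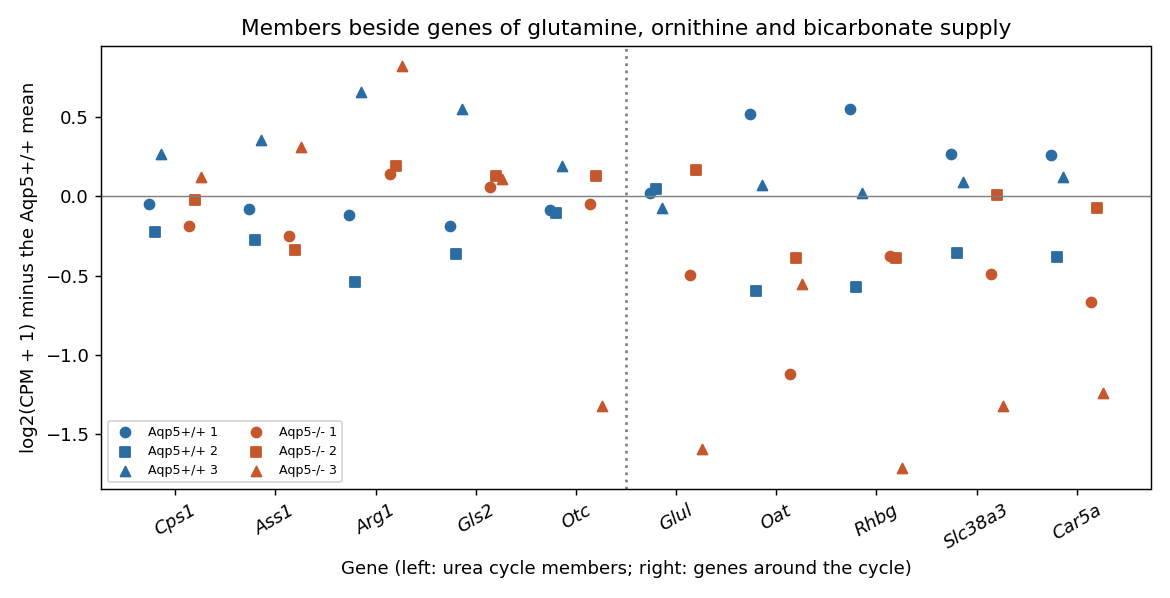
Log2(CPM + 1) of 5 members (left) and of 5 genes around the cycle (right) minus the gene's Aqp5+/+ mean, with a symbol for each library. In Aqp5-/- replicate 3 (orange triangles) Otc is at -1.32 and Glul at -1.59, while Arg1 is at 0.82.

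The supply of aspartate, alanine and bicarbonate gave 0 of 11 tested genes called and a median log2 fold change of 0.10, which was -0.10 without Aqp5+/+ replicate 2 and -0.0082 without Aqp5-/- replicate 3. Car5a, the mitochondrial carbonic anhydrase that supplies bicarbonate to CPS1, was at 61.1, 38.7 and 55.4 CPM in Aqp5+/+ and at 31.7, 48.3 and 21.0 CPM in Aqp5-/- replicates 1 to 3. Its groups overlapped, with a log2 fold change of -0.62 (standard error 0.33, Benjamini-Hochberg adjusted p = 0.61 by the quasi-likelihood test of edgeR). The aspartate aminotransferase genes Got1 and Got2 had fitted log2 fold changes of 0.02 (standard error 0.27) and 0.01 (standard error 0.30). Their 95% intervals were wide, at -0.59 to 0.64 for Got1 and -0.67 to 0.68 for Got2. Slc25a12, Car2 and Mdh2 had values of 0.26, 0.46 and 0.30 with overlapping groups.

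Other routes of arginine and ornithine had 0 of 18 genes called and a median of 0.20. Odc1 encodes ornithine decarboxylase, which draws ornithine into polyamines. It was at 15.9, 7.05 and 20.2 CPM in Aqp5+/+ and at 25.0, 19.6 and 53.1 CPM in Aqp5-/- replicates 1 to 3. Aqp5-/- replicate 3 was the highest library, and Aqp5-/- replicate 2 lay just below Aqp5+/+ replicate 3. The log2 fold change of Odc1 was 1.17 (standard error 0.47), which gave an unadjusted p of 0.036 by the quasi-likelihood test of edgeR and 0.53 as the Benjamini-Hochberg adjusted p. Oat, whose product turns ornithine into glutamate semialdehyde and which is also among the pericentral markers, was at 1096, 506 and 803 CPM in Aqp5+/+ and at 351, 582 and 520 CPM in Aqp5-/- replicates 1 to 3, and its log2 fold change was -0.73, with a standard error of 0.36 and an adjusted p = 0.59 by the same test. Agmat and Amd1 had log2 fold changes of -0.52 and 0.43, with overlapping groups.

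Among modifiers and regulators of urea cycle genes, 0 of 15 were called, 1 had an unadjusted p under 0.05 on the higher side and 2 on the lower side, and the median was -0.31. Sirt3 encodes a mitochondrial deacetylase that is known to act on OTC. It was at 48.4, 59.9 and 49.6 CPM in Aqp5+/+ and at 36.3, 39.0 and 25.7 CPM in Aqp5-/- replicates 1 to 3, without overlap. Its log2 fold change was -0.64 (standard error 0.23, unadjusted p of 0.023, Benjamini-Hochberg adjusted p = 0.48 by the quasi-likelihood test of edgeR). Sirt5, whose product removes acyl groups from CPS1, had a value of -0.76 (standard error 0.36) with overlapping groups. Gcgr, the receptor for glucagon, which is known to raise the expression of urea cycle enzymes, was at 218, 337 and 156 CPM in Aqp5+/+ and at 141, 162 and 64.3 CPM in Aqp5-/- replicates 1 to 3. Only Aqp5+/+ replicate 3 and Aqp5-/- replicate 2 overlapped, and the log2 fold change of -0.95 (standard error 0.41) gave an unadjusted p of 0.045 by the quasi-likelihood test of edgeR, and the Benjamini-Hochberg adjusted p was 0.56.

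The 2 C/EBP factors listed had opposite signs. Cebpb was at 10.05, 8.40 and 9.43 CPM in Aqp5+/+ and at 15.6, 18.3 and 10.9 CPM in Aqp5-/- replicates 1 to 3, without overlap. Its log2 fold change was 0.68 (standard error 0.29, unadjusted p of 0.046, Benjamini-Hochberg adjusted p = 0.56 by the quasi-likelihood test of edgeR). Cebpa was at 124, 70.1 and 108 CPM in Aqp5+/+ and at 94.997, 81.4 and 31.7 CPM in Aqp5-/- replicates 1 to 3, with the lowest value in the library in which Otc was lowest. Any part of Cebpa in the Otc level was not tested. For Cebpa the fit gave -0.54 on the log2 scale, with a standard error of 0.40 and an adjusted p = 0.71 by the same test. Hnf4a, a nuclear receptor needed for hepatocyte gene expression, had a log2 fold change of 0.31 (standard error 0.28) with overlapping groups.

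Other amino acid enzymes that release nitrogen gave 0 of 17 genes called and a median of -0.08, which was 0.03 without Aqp5+/+ replicate 3 and 0.08 with library totals. Ftcd, which acts at the end of histidine breakdown, was at 506, 584 and 351 CPM in Aqp5+/+ and at 276, 325 and 267 CPM in Aqp5-/- replicates 1 to 3. The groups did not overlap, and the log2 fold change of -0.73 (standard error 0.28) gave an unadjusted p of 0.029 by the quasi-likelihood test of edgeR, and the Benjamini-Hochberg adjusted p was 0.51. Amdhd1, which acts earlier in the same route, had a value of -0.47 (standard error 0.25) with overlapping groups, and Tdo2, which opens tryptophan breakdown, a value of -0.58 (standard error 0.30) without overlap. Tat, the tyrosine aminotransferase, was at 537, 1419 and 1852 CPM in Aqp5+/+ and at 1859, 1561 and 3033 CPM in Aqp5-/- replicates 1 to 3. Its groups overlapped, with a log2 fold change of 0.76 (standard error 0.49).

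Markers of other cells were measured beside these genes. All 11 Kupffer cell and macrophage markers tested had a positive log2 fold change (median 1.33), 9 of them with an unadjusted p under 0.05, and 0 were called with edgeR and 4 with DESeq2. Without Aqp5-/- replicate 3 the 11 stayed positive (median 0.88). Their summed level was 282 to 446 CPM in Aqp5+/+ and 580 to 1476 CPM in Aqp5-/- libraries. Of the other lists, all 7 neutrophil markers tested were positive (median 2.503) and 1 was called, the granule protein gene Ngp. With limma, hepatocyte marker scaling or the replicate block, 6 of 7 were positive. The same held without Aqp5+/+ replicate 3, Aqp5-/- replicate 2 or Aqp5-/- replicate 3. Counts of Ngp were 0, 0 and 1 in Aqp5+/+ and 39, 26 and 50 in Aqp5-/- replicates 1 to 3. DESeq2 called 2 neutrophil markers, and none was called in those settings, without the count filter or with any library left out. All 12 cell cycle genes were positive (median 0.48) with 0 called. Without Aqp5+/+ replicate 2, which had the lowest cell cycle sum (108 CPM), 7 were positive and 5 negative (median 0.12). Of the erythroid markers 5 of 6 were negative and 1 was called, the heme synthesis gene Alas2. Alas2 was not called with the replicate block or without Aqp5+/+ replicate 1, Aqp5+/+ replicate 3 or Aqp5-/- replicate 2. Of the lymphocyte markers 9 of 10 were negative and of the endothelial markers 8 of 10, with 0 called. Without Aqp5+/+ replicate 2, 6 lymphocyte markers were negative and 4 positive. The summed lymphocyte level was 69.19 to 184.4 CPM in Aqp5+/+ and 96.25 to 100.7 CPM in Aqp5-/- libraries, so the sums overlapped. The 10 members together, at 9831 to 15020 CPM in Aqp5+/+ and 11090 to 13340 CPM in Aqp5-/- libraries, overlapped between the genotypes. The part of these cells' RNA in the members' values was not tested.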

How the data were processed

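Liver RNA of 3 Aqp5+/+ and 3 Aqp5-/- libraries at 72 h after 70% PHx was analysed. The deposited values are raw counts, used unchanged. To make them, the authors depleted ribosomal RNA, prepared libraries with a stranded kit, trimmed reads (cutadapt 1.9.3), aligned them to mm10 (HISAT2 2.0.4) and counted them per gene (HTSeq). The strand setting of the counting is not given in the sources used here. A further 6 columns of normalized log2 values share the names of the count columns and were not used. GENCODE vM21 on GRCm38 held 16666 of the 16858 genes and gave positions and exon lengths.

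Genes were kept by filterByExpr (minimum count 10, minimum total 15), and 12353 passed. After TMM scaling a model with genotype alone was fitted in edgeR 4.0.16 under R 4.3.3. The quasi-likelihood test (robust, 2-sided) was adjusted over all genes by Benjamini-Hochberg, and genes were called at 0.05. The standard error was derived as the absolute log2 fold change divided by the square root of that test's F statistic. The 95% intervals are the log2 fold change plus and minus this error times the t quantile at the test's degrees of freedom. The fit was tested on simulated data. The common biological coefficient of variation was 0.371. All members were named. Of each related list the text names called genes or up to 4 with the lowest unadjusted p. Glul, Slc38a3, Got1, Got2, Arg2, Cebpa and Hnf4a were added for their role in the pathway. Members and lists were chosen with earlier results of these data known. Alternatives were DESeq2 1.42.0, limma 3.58.1 with a trend on log2 CPM, RLE size factors, library totals, scaling to hepatocyte markers, a block for the replicate number, no filter on low counts, a stricter filter that also asked for a mean of 1 CPM, and each library left out in turn. Aqp5 and Xist were not analysed here. Of the genes the rule names, 1 is not reported here.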

Additional observations from a re-analysis of the deposited data

How the results depend on the processing

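Over 14 alternatives the 10 members gave 140 values, of which 0 had an adjusted p under 0.05, with a lowest adjusted p of 0.41 and a lowest unadjusted p of 0.059. Arg1 and Asl stayed positive throughout, and 24 values were opposite in sign to the reported value, 14 of them with a library left out. The cause was not tested. With library totals Ass1 was at 0.083, Cps1 at 0.13, Glud1 at 0.16, Nags at 0.12 and Slc25a13 at 0.0078, with limma Glud1 was at 0.031 and Nags at 0.067, and with hepatocyte marker scaling Gls2 was at -0.060. With each library left out in turn, log2 fold changes ran from -0.32 to 0.11 for Ass1, -0.15 to 0.11 for Cps1, -0.13 to 0.37 for Gls2, -0.20 to 0.28 for Glud1, -0.35 to 0.31 for Nags, -0.56 to 0.036 for Otc, -0.26 to 0.022 for Slc25a13 and -0.091 to 0.57 for Slc25a15. The members' median ran from -0.17 without Aqp5+/+ replicate 2 to 0.29 without Aqp5+/+ replicate 3.

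Among all genes DESeq2 called 240 against 41 with edgeR, and leaving out 1 library gave 4 to 45 calls. For Aqp5+/+ replicates 1 to 3 left out, the counts were 4, 17 and 16, and for Aqp5-/- replicates 1 to 3 they were 26, 4 and 45. The related genes, whose leave-one-out counts were added after seeing the data, gave 0 calls each time. Deviations from the genotype means had correlations of -0.063, 0.232 and 0.149 between same-numbered libraries. Libraries of unlike number were not compared, so these values do not decide whether replicate numbers pair the samples. With the replicate block 39 genes and 0 members were called, the members' median was 0.04, and Glud1 and Nags were at 0.035 and 0.049. The planned limma fit on the deposited log2 values was not run. With 3 libraries per genotype, an adjusted p over 0.05 does not show that a gene was equal in both.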
